A study of Mus musculus with 8 samples.

Results

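Genes that drive the cell cycle and copy DNA were compared between the retinas of Lpcat1 wildtype (WT) and Lpcat1 knockout (KO) mice. The group was a list of 54 gene symbols, and its members were the array probes whose RefSeq transcript carries one of these symbols. All 54 had a probe, among 20018 genes with a named probe on the array. By role, 13 act in G1 and at the entry into S phase (G1/S), 16 in DNA replication and 25 in mitosis. The rule itself used no measured value, although the list was drawn up with earlier results of these data known. A gene with several probes was represented by its brightest one, averaged over all 8 arrays.

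LPCAT1 is an acyltransferase that attaches a fatty acid to lysophosphatidylcholine, and rd11 mice, which carry a mutation of its gene, lose photoreceptor cells. Total RNA of the whole retina was collected at 2 weeks of age from C57BL/6 mice, in 4 Lpcat1 WT and 4 Lpcat1 KO samples, and each was hybridised to 1 one-colour array. The study describes the deletion as global, so it is not restricted to the retina or to photoreceptor cells. By its methods the C57BL6/N line had been crossed with C57BL6/J to remove the rd8 mutation of Crb1. Mice not homozygous for rd8 were used, so heterozygous carriers may be among the samples. The mice were kept under a light-dark cycle, and no treatment is named for either genotype. Nothing in the labels says whether the samples of a genotype came from separate mice, so the p-values below measure the spread between these samples, which may be technical in part.

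A cell enters the cycle when D cyclins with CDK4 or CDK6, and then E cyclins with CDK2, phosphorylate the retinoblastoma protein RB and free the E2F factors, which switch on the genes of S phase. Inhibitors such as p27 (Cdkn1b) and p57 (Cdkn1c) hold this step back. Replication origins are licensed in G1 by CDC6 and CDT1, which load the MCM helicase, and geminin (Gmnn) blocks CDT1 once S phase has begun. Cyclin B with CDK1 then starts mitosis, the chromosomal passenger complex with Birc5 and Aurkb watches over the attachment of chromosomes, and CDC20 directs the anaphase-promoting complex to end it. In the mouse retina, progenitors finish dividing in the early postnatal period, and at 2 weeks most neurons have left the cycle, while glia, vessel cells and microglia keep some capacity to divide. Several of these proteins also serve cells that no longer divide, such as PCNA in DNA repair.

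Promoter elements of these genes are shown first, counted by role, and differences between the roles were not tested. The CHR, with the letters TTTGAA, is read by the complexes that time genes of G2 and mitosis, and often lies beside CCAAT boxes, which are bound by NF-Y. E2F sites, searched for as TTTCCCGC, TTTCGCGC, TTTGCCGC and TTTGGCGC, are typical of genes of S phase. RefSeq promoter windows of build GRCm38.p6, which run from 250 bases before to 50 bases after a gene's start, were present for 41 of the 54 genes, in 45 windows, and were searched on both strands. None of these motifs holds another one in full, though E2F letters can overlap each other. The windows of the called genes Mki67, Birc5 and Tk1 are printed with that of Mcm5, a helicase subunit whose window holds both CCAAT boxes and E2F letters. They are written from 5′ to 3′ in the orientation of the gene, with every match to a searched motif in capitals. The window of Mki67 lies at chr7:135716330-135716629 on the minus strand, that of Mcm5 at chr8:75109259-75109558 on the plus strand, that of Birc5 at chr11:117848987-117849286 on the plus strand and that of Tk1 at chr11:117825965-117826264 on the minus strand.
Mki67: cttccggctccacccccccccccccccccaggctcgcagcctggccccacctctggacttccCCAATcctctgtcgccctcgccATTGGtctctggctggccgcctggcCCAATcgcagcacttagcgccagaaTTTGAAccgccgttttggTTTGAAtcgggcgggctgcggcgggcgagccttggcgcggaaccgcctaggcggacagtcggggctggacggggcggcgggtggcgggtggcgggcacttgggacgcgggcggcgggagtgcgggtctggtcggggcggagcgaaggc
Mcm5: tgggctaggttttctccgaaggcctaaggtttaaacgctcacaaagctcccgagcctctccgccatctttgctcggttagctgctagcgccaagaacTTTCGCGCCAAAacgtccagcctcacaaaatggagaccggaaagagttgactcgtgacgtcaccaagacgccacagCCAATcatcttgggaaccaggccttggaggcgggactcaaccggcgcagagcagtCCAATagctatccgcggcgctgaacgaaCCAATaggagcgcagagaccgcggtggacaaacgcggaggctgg
Birc5: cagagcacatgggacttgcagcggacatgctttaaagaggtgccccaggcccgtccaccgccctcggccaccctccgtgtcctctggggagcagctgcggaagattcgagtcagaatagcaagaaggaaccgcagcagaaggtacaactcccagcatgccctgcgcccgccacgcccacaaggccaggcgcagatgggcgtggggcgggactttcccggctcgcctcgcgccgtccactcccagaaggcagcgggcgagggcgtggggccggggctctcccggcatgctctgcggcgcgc
Tk1: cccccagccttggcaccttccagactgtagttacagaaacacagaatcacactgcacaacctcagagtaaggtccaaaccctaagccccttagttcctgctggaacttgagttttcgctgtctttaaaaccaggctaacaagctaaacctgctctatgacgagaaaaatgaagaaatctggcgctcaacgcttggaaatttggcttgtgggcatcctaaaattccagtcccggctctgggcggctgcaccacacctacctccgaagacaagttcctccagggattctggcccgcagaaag

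The Mki67 window held 2 CHR matches, which began at positions -116 and -98 relative to the start, and 3 CCAAT boxes upstream of them, at -188, -166 and -141. In the Mcm5 window, E2F letters began at -153 and -149 and overlapped, and CCAAT boxes began at -77, -22 and 7. The Birc5 and Tk1 windows held 0 matches to any of the motifs, which says only that these letters are not in these windows. Over the role groups, the CHR letters were in 13 of 20 windows of mitosis genes (65.0%), in 1 of 15 of replication genes (6.67%) and in 1 of 10 of G1/S genes, against 17.9% of all 32851 windows. E2F letters were in 7 windows of replication genes (46.7%), in 2 of G1/S genes and in 1 of mitosis genes (5.0%), against 2.26% of all windows. CCAAT boxes were common in each group, with 17 of 20 mitosis windows, 11 of 15 replication windows and 5 of 10 G1/S windows, against 37.4% of all windows. These matches describe sequence and were not set against the array values.

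**Figure D1:**
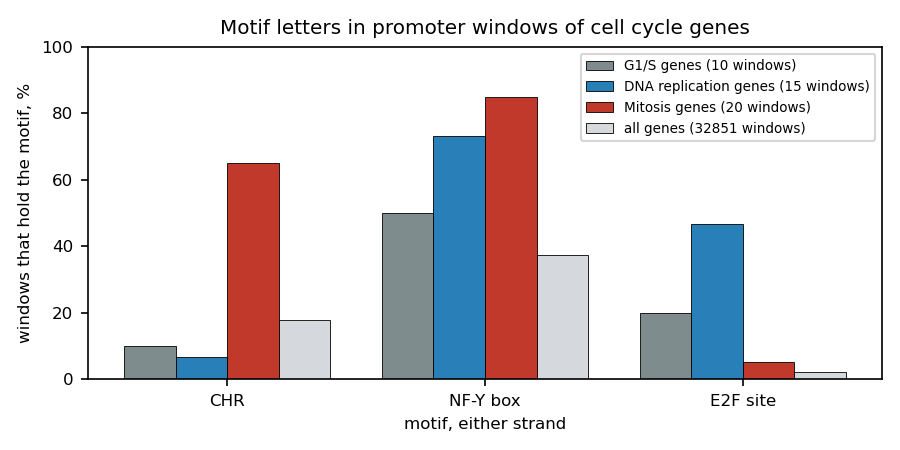
Share of promoter windows (vertical axis, percent) that hold each motif on either strand, for the G1/S, replication and mitosis genes and for all windows of the RefSeq table, with the number of windows in the legend. The NF-Y box is the CCAAT box. CHR letters stood highest in mitosis genes at 65.0% and E2F letters in replication genes at 46.7%.

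Levels are log2 of the processed signal minus the array's 75th percentile, so that 0 is the signal at this percentile, and the level of a gene is never compared with that of another gene. Where levels of a list are summed, bright probes weigh most. A difference is KO minus WT on this log2 scale with its standard error (SE), and the adjusted p is that of limma after Benjamini-Hochberg adjustment over 33972 tested probes. A gene was called when the adjusted p was under 0.05 and the fold change over 1.2, which for a decrease is a KO signal under 83.3% of WT. Testing was limited to probes that the scanner software marked as well above background throughout 1 genotype or both. All 8 arrays lay on 1 slide, with the WT arrays in one row and the KO arrays in the other, so slide row and genotype cannot be told apart. The signal at the 75th percentile ran from 669.0 to 715.9 on WT arrays and from 638.4 to 737.8 on KO arrays, and between 35031 and 36373 probes (WT) or 33113 and 35619 probes (KO) were well above background. The number of arrays limits the precision, and with 4 against 4 the smallest p of a two-sided exact permutation test is 0.0286. Lpcat1 itself fell from -0.42, -0.39, -0.43 and -0.38 in WT to -0.88, -0.92, -0.90 and -0.78 in KO (difference -0.46, SE 0.043, limma adjusted p = 0.0036), and whether its probe covers the deleted sequence was not examined.

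Rod genes, which define the main cell type of this tissue, were well above background on all arrays for 12 of 12 markers. Their summed level, in multiples of the 75th percentile signal, ran from 2100 to 2177 on the WT arrays and from 1715 to 1891 on the KO arrays, and 4 of 12 were called lower, among them Sag and Nr2e3. All 12 means were lower in KO, 10 of them at an unadjusted p under 0.05. Microglia markers were called higher for 7 of 14 genes, led by Tyrobp (0.65), with sums of 35.1 to 42.5 for WT against 39.6 to 45.6 for KO. All 14 means were higher in KO, and 12 of the 14 were higher at an unadjusted p under 0.05. Markers of Müller glia were called higher for 2 of 10 (Kcnj10 and Clu), with sums of 264.9 to 277.7 for WT against 313.0 to 317.2 for KO. Of the 10 means 9 were higher in KO, and 7 genes were higher at an unadjusted p under 0.05. Markers of vessel cells were called higher for 2 of 14 (Flt1 and Ly6c1), with sums of 31.2 to 32.4 against 31.7 to 32.6, but 10 of the 14 means were lower in KO, 5 genes were lower and 2 higher at an unadjusted p under 0.05, and the median difference was -0.07. No gene was called among markers of astrocytes and oligodendrocytes (0 of 8), inner retinal neurons (0 of 13), retinal pigment epithelium (0 of 7), lens (0 of 4), blood (0 of 4) or retinal progenitors (0 of 11). By unadjusted limma p under 0.05, these 6 lists held 3, 3, 2, 0, 0 and 1 genes higher and 0, 0, 0, 1, 0 and 1 lower. The sums of inner neuron markers were 258.2 to 262.8 in WT against 273.3 to 274.6 in KO, those of astrocytes and oligodendrocytes 11.1 to 12.1 against 12.4 to 13.0, and those of the pigment epithelium 38.8 to 40.5 against 41.9 to 45.04. Rlbp1 is also on the Müller glia list, and without it the pigment epithelium sums were 11.1 to 14.2 against 11.8 to 14.7. The sums of progenitor markers were 47.2 to 49.8 and 45.3 to 49.9, of lens 0.363 to 0.498 and 0.328 to 0.483, and of blood 10.2 to 13.6 and 11.1 to 16.1, with Olig2 and Crygb among those too dim on every array. These shifts in markers stand beside each result below, and their part in them was not tested. In RNA of a whole tissue, fewer cells of a type and less RNA per cell cannot be told apart.

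Of the 54 cell cycle genes, 46 could be tested. Mki67, Birc5, Tk1 and Cdkn1c were called lower in KO, which is 4 of 46 or 8.7%, and 0 were called higher. The methods' t-test called 2 lower (Cdkn1c and Mki67) and likewise 0 higher. It called 701 of the 33972 tested probes, where limma called 992. Over all 14937 genes tested with 1 probe each, limma called 1.49% lower and 1.99% higher. At an unadjusted p under 0.05, limma gave 14 members lower (30.4%) and 2 higher (4.35%), where 15.3% and 10.9% of all genes were so. All KO values lay below all WT values in 10 members (21.7%, against 12.4% of all genes) and above them in 2 (4.35%, against 8.77%). The KO mean was the lower one in 34 of the 46 (73.9%, against 57.8% of all genes). The median difference over the members was -0.10 and over all genes -0.02. These counts cover the members that passed the filter on dim probes. Tk1, Nusap1 and Kif11 passed it through WT alone, since their probes were well above background on 3, 2 and 2 of the 4 KO arrays, so the filter itself favours lower values there. Of the 43 members well above background on all 8 arrays, 3 were called lower (Mki67, Birc5 and Cdkn1c) and 0 higher, where 1.53% and 2.19% of 14492 genes were called under the same filter. With no filter on dim probes, or with the replicate number as a block in the fit, 0 members were called. These settings called 246 and 395 of all tested probes, against 992 in the main setting.

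**Figure D2:**
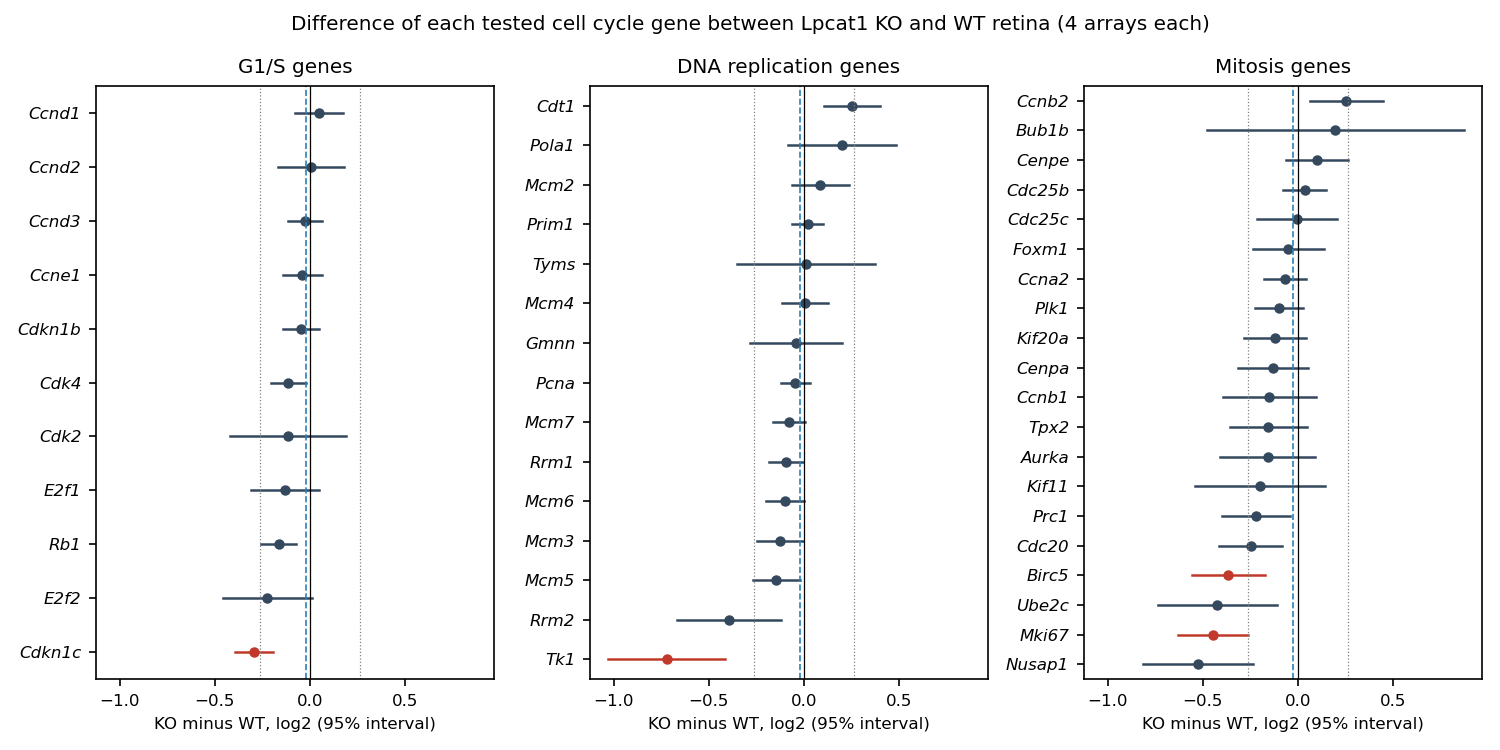
KO minus WT difference on the log2 scale (horizontal axis) with its 95% limma interval for the 46 tested genes in 3 panels by role, each from 4 WT and 4 KO arrays. Called genes are red, dotted lines mark a fold change of 1.2 and the dashed line the median of all genes at -0.02. Differences run from -0.72 for Tk1, which passed the filter on dim probes through WT alone, to 0.26 for Ccnb2. All 4 called genes lie on the lower side.

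The 8 genes that could not be tested were Ccne2, Cdk6, Cdc6, Top2a, Cdk1, Bub1, Aurkb and Ccnb1ip1. Each of their probes was too dim to pass as well above background on a single one of the 8 arrays. The processed signals lay between 3.57 and 21.2, while the lowest signal of a probe that was well above background ranged from 18.1 to 28.1 between arrays. Cdk1, the kinase that drives the entry into mitosis, gave signals of 10.5, 5.45, 6.22 and 8.99 in WT and 6.33, 7.52, 6.35 and 6.34 in KO. Top2a, the topoisomerase that untangles sister chromatids, gave 20.2, 10.9, 21.2 and 12.8 in WT and 4.83, 7.31, 6.04 and 5.66 in KO. All 4 KO signals of Top2a lay below the WT signals, but no fold is given because both genotypes were below the background limit. Cdc6, the factor that licenses origins with CDT1, went the other way, with 4.53, 5.18, 5.35 and 5.29 in WT and 9.17, 9.83, 5.78 and 8.37 in KO, and again no fold is given. Ccnb1ip1, a ubiquitin ligase that also acts in meiosis, had signals of 7.73, 6.93, 14.3 and 10.2 in WT and 4.23, 6.24, 5.24 and 4.84 in KO. The number of members well above background was 46 on every WT array and 46, 44, 44 and 45 on the KO arrays (44.75 ± 0.96, SD, n = 4; two-sided exact permutation test, p = 0.143).

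Among the G1/S genes, the cyclin-dependent kinase inhibitor Cdkn1c fell, and the cyclins of this phase showed no call. Of 11 tested genes, 1 was called lower, 0 higher, and 9 means were lower and 2 higher in KO. The median difference was -0.11, with a range of -0.29 to 0.05. Cdkn1c, which encodes p57 and is expressed from the maternal allele, had levels of 2.64, 2.60, 2.54 and 2.71 in WT and 2.36, 2.33, 2.32 and 2.31 in KO. The 4 KO arrays spread little (SD 0.02) and all lay below the WT arrays. The difference was -0.29 (SE 0.044, 95% interval -0.40 to -0.19, limma adjusted p = 0.0148), a KO signal of 81.6% of WT.

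Rb1, the gene of the retinoblastoma protein, showed levels of 1.09, 1.05, 1.05 and 1.09 in WT and 0.98, 0.84, 0.92 and 0.89 in KO. The genotypes did not overlap, but the difference of -0.17 (SE 0.041, limma adjusted p = 0.0544) was neither past the adjusted threshold nor past a fold of 1.2. Cdk4, the kinase partner of D cyclins, gave 3.08, 3.10, 3.09 and 3.07 in WT and 3.02, 3.01, 2.96 and 2.90 in KO, again without overlap (difference -0.11, SE 0.040, limma adjusted p = 0.130). Its other 2 probes gave -0.07 and -0.17 and were not called. E2f2, an activating E2F factor, had levels of -1.41, -1.29, -1.54 and -1.32 in WT and -1.47, -1.46, -1.65 and -1.88 in KO, which overlapped (difference -0.22, limma adjusted p = 0.231, and -0.14 without KO replicate 4).

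For Cdkn1b, the p27 inhibitor, levels were 2.89, 2.91, 2.94 and 2.99 in WT and 2.94, 2.91, 2.87 and 2.83 in KO. The genotypes overlapped, and the difference was -0.05 with a 95% interval of -0.14 to 0.05, which lies within a fold of 1.2 on either side. The difference between Cdkn1c and Cdkn1b was not tested. Ccnd1, the cyclin D that retinal progenitors and Müller glia use, had levels of 1.11, 1.18, 1.09 and 1.28 in WT and 1.27, 1.22, 1.13 and 1.22 in KO (difference 0.05, interval -0.08 to 0.17). Ccnd2 lay at -1.57, -1.52, -1.49 and -1.51 in WT and at -1.43, -1.34, -1.64 and -1.66 in KO (difference 0.01, interval -0.17 to 0.18). The cyclins Ccnd3 and Ccne1, the kinase Cdk2 and the factor E2f1 differed by -0.03, -0.04, -0.12 and -0.13, and none of them was called.

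**Figure D3:**
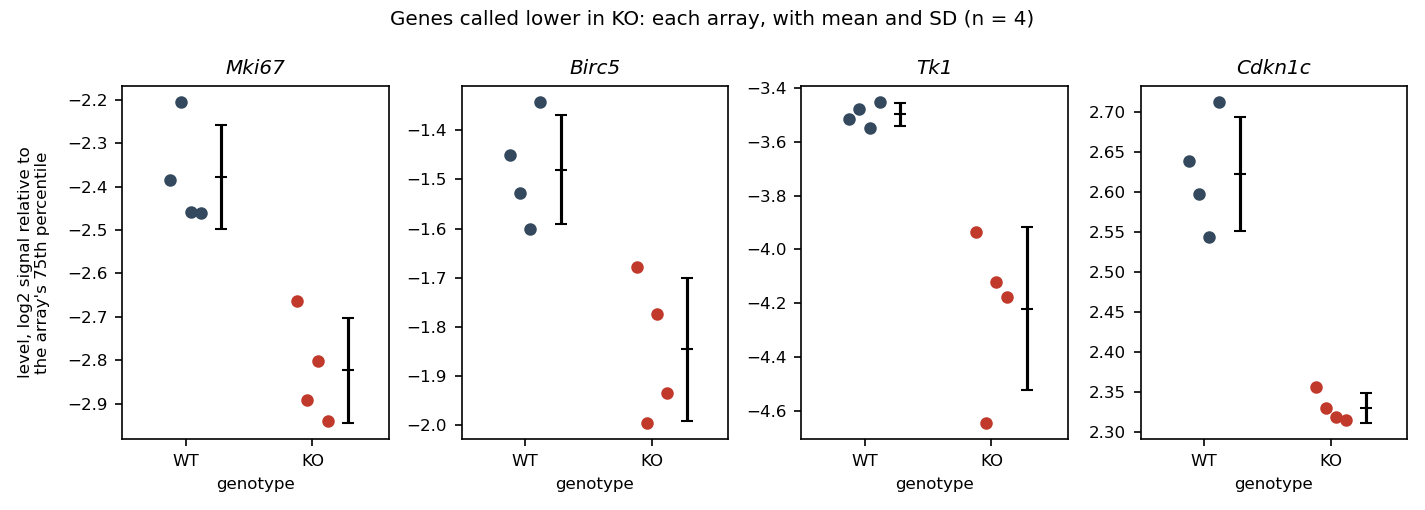
Level of each of the 4 genes called lower, as log2 signal relative to the array's 75th percentile (vertical axis, which differs between panels), with each point 1 array and the bar the mean and SD of 4. The KO points lie below the WT points in every panel, with KO means at 73.4% (Mki67), 77.6% (Birc5) and 81.6% (Cdkn1c) of the WT signal. No such share is given for Tk1, whose probe was well above background on 3 of the 4 KO arrays.

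Among the replication genes, Tk1 was called lower from a dim probe, and the licensing factor Cdt1 and the subunits of the MCM helicase were not called. Of 15 tested genes, 1 was called lower and 0 higher, 9 means were lower and 6 higher, and the median difference was -0.04 with a range of -0.72 to 0.25. Tk1, the cytosolic thymidine kinase that salvages thymidine for DNA synthesis and peaks in S phase, had levels of -3.51, -3.48, -3.55 and -3.45 in WT and -3.93, -4.65, -4.12 and -4.18 in KO. The WT arrays lay close together (SD 0.04) and all KO arrays below them, with KO replicate 2 the lowest. The difference was -0.72 (SE 0.13, 95% interval -1.03 to -0.41, limma adjusted p = 0.0266). The probe was dim. Its processed signal lay between 58.6 and 64.4 on the WT arrays and between 29.5 and 42.8 on the KO arrays, and it was well above background on 3 of the 4 KO arrays, so the size of the difference is uncertain. With a normexp background correction of the median signals the difference was -0.25 and was not called (limma adjusted p = 0.0549). This correction, also used below, adds a constant to every signal before the log, which makes log2 differences of dim probes smaller.

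Rrm2, the small subunit of the ribonucleotide reductase that makes deoxynucleotides, gave -3.46, -3.36, -3.60 and -3.43 in WT and -3.55, -3.92, -3.80 and -4.15 in KO. Only KO replicate 1 reached into the WT range, and the difference of -0.39 (SE 0.12) did not pass (limma adjusted p = 0.0933) and was -0.17 with normexp. It was called with array weights in limma and without KO replicate 1. Rrm1, the large subunit, differed by -0.09 (adjusted p = 0.187). Of the MCM helicase, Mcm7 was the one subunit without overlap, with 1.59, 1.65, 1.59 and 1.64 in WT and 1.58, 1.49, 1.54 and 1.54 in KO, but its difference was only -0.08 (SE 0.037, limma adjusted p = 0.251). Mcm5 lay at -1.20, -1.14, -1.24 and -1.26 in WT and at -1.22, -1.42, -1.41 and -1.37 in KO (difference -0.14, limma adjusted p = 0.155, and -0.08 with normexp). Mcm3 and Mcm6 differed by -0.13 and -0.10 and Mcm4 by 0.004. Mcm2, the subunit most used as a marker of cycling cells, had levels of -2.07, -2.10, -2.12 and -1.90 in WT and -2.01, -1.85, -2.05 and -1.94 in KO, with a difference of 0.09 (interval -0.06 to 0.24) that ran from 0.05 without KO replicate 2 to 0.14 without WT replicate 4.

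The highest difference of the replication genes was that of Cdt1, with levels of -1.05, -0.94, -0.96 and -0.94 in WT and -0.77, -0.83, -0.55 and -0.71 in KO. All KO arrays lay above all WT arrays, and the difference of 0.25 (SE 0.064) missed the adjusted threshold (limma adjusted p = 0.0576). It was called when the 75th percentile came from probes detected everywhere (difference 0.28). Pola1, the catalytic subunit of DNA polymerase alpha, had levels of -0.93, -0.98, -0.96 and -0.97 in WT and -0.34, -0.86, -0.88 and -0.95 in KO. Its difference of 0.20 (limma adjusted p = 0.369) rested on KO replicate 1 and was 0.06 without that array. Pcna, the sliding clamp of the DNA polymerases, lay at 3.19, 3.18, 3.20 and 3.23 in WT and at 3.19, 3.14, 3.17 and 3.14 in KO (difference -0.04, interval -0.12 to 0.03). The primase Prim1, the thymidylate synthase Tyms and geminin differed by 0.02, 0.01 and -0.04, and none was called.

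**Figure D4:**
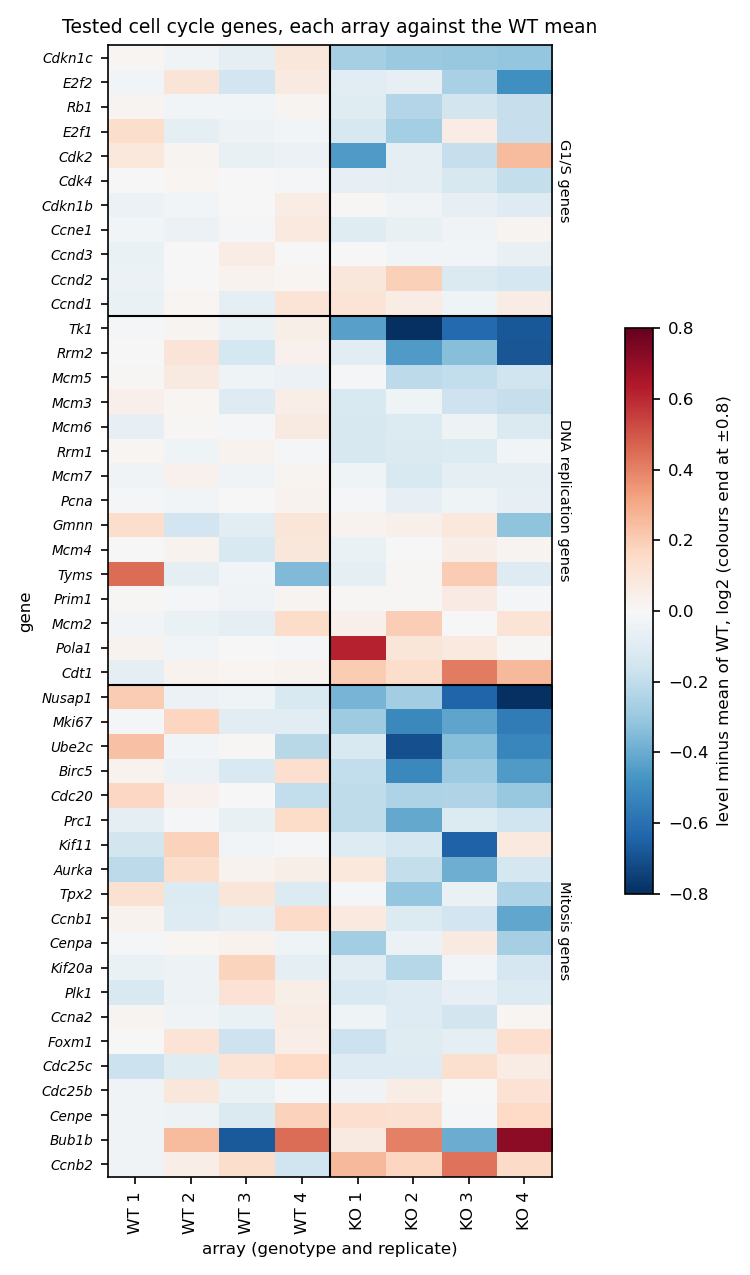
Level of the 46 tested genes (rows, by role and by difference) on each array (columns) minus the mean of the 4 WT arrays, on a log2 colour scale that ends at 0.8 in either direction. The rows of Cdkn1c, Tk1, Mki67 and Birc5 are blue on all 4 KO arrays, Cdt1 and Ccnb2 are red there, and Bub1b varies between replicates in both genotypes.

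Among the mitosis genes, the proliferation antigen Mki67 and the survivin gene Birc5 fell. Of 20 tested genes, 2 were called lower and 0 higher, 16 means were lower and 4 higher, and the median difference was -0.14 with a range of -0.53 to 0.26. Mki67, which encodes the Ki-67 protein that coats mitotic chromosomes, had levels of -2.39, -2.20, -2.46 and -2.46 in WT and -2.66, -2.89, -2.80 and -2.94 in KO. Each KO array lay below each WT array, and the difference was -0.45 (SE 0.079, 95% interval -0.63 to -0.26, limma adjusted p = 0.0240), a KO signal of 73.4% of WT. A second Mki67 probe gave -3.12, -2.86, -2.91 and -2.86 in WT and -3.37, -3.35, -3.41 and -3.65 in KO. It too was called lower (difference -0.51, SE 0.085, limma adjusted p = 0.0209). With normexp the difference of the brighter probe was -0.26, which is just under a fold of 1.2 and so not called (limma adjusted p = 0.0258).

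Birc5, a subunit of the chromosomal passenger complex, had levels of -1.45, -1.53, -1.60 and -1.34 in WT and -1.68, -2.00, -1.77 and -1.93 in KO. These did not overlap, with a difference of -0.37 (SE 0.084, 95% interval -0.56 to -0.17, limma adjusted p = 0.0462) and a KO signal of 77.6% of WT. On all 8 arrays its other 2 probes were too dim to be tested. Of its partners in the complex, Aurkb could not be tested, and Incenp differed by -0.11 without overlap (limma adjusted p = 0.124). Aurka, a kinase related to Aurkb, differed by -0.16 (limma adjusted p = 0.420).

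Nusap1, which bundles spindle microtubules, showed the lowest difference of the mitosis genes. Its levels were -4.04, -4.29, -4.28 and -4.37 in WT and -4.62, -4.52, -4.89 and -5.06 in KO, without overlap, but its probe was well above background on only 2 of the 4 KO arrays. The difference of -0.53 (SE 0.13) stood just outside the threshold (limma adjusted p = 0.0508), and it was -0.10 with normexp. With array weights in limma it was called. Ube2c, the ubiquitin-conjugating enzyme of the anaphase-promoting complex, gave -2.75, -3.00, -2.98 and -3.20 in WT and -3.11, -3.69, -3.33 and -3.50 in KO. The genotypes overlapped (difference -0.42, SE 0.14, limma adjusted p = 0.107), and its other tested probe differed by -0.09. With normexp the difference of the brighter probe was -0.17. Cdc20, the activator of the same complex, lay at -1.68, -1.81, -1.85 and -2.04 in WT and at -2.05, -2.09, -2.09 and -2.15 in KO. The genotypes did not overlap, though WT replicate 4 lay beside the highest KO array, and the difference of -0.25 (SE 0.072) did not pass (limma adjusted p = 0.0845) and was -0.12 with normexp. Without WT replicate 4 it was called. Prc1, which crosslinks microtubules of the central spindle, had -2.24, -2.18, -2.23 and -2.02 in WT and -2.37, -2.58, -2.28 and -2.33 in KO, again without overlap (difference -0.22, limma adjusted p = 0.133, and -0.06 with normexp).

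The other mitosis genes had no call in either direction. The B-type cyclin Ccnb2 gave -1.40, -1.32, -1.23 and -1.54 in WT and -1.11, -1.20, -0.94 and -1.22 in KO, with all KO arrays above all WT arrays but no call (difference 0.26, SE 0.084, limma adjusted p = 0.111). Its paralog Ccnb1 differed by -0.15 (interval -0.39 to 0.09), and the difference between these 2 cyclins was not tested. Bub1b, a kinase of the spindle checkpoint, had levels of -1.38, -1.11, -2.03 and -0.91 in WT and -1.29, -0.96, -1.76 and -0.64 in KO. It had the widest spread of the tested members in WT (SD 0.49), and the difference of 0.20 had an interval of -0.48 to 0.87. With single arrays left out it ran from -0.03 (without WT replicate 3) to 0.40. Cenpe, a kinesin of the kinetochore, lay at 0.19, 0.18, 0.11 and 0.41 in WT and at 0.35, 0.35, 0.21 and 0.38 in KO (difference 0.10, limma adjusted p = 0.425). The remaining genes Ccna2, Cdc25b, Cdc25c, Plk1, Cenpa, Kif11, Kif20a, Tpx2 and Foxm1 differed by -0.20 (Kif11, well above background on 2 of 4 KO arrays) to 0.04 (Cdc25b), and none was called.

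The calls were recomputed after leaving out each of the 8 arrays in turn. Cdkn1c kept its call in all 8 runs, with an adjusted p of 0.0250 to 0.0495. Mki67 lost it in 6 runs and kept it without WT replicate 4 or KO replicate 1, with an adjusted p of up to 0.0700 without KO replicate 2. Tk1 lost it in 6 runs and kept it without KO replicate 1 or 2, with an adjusted p of up to 0.0766 without WT replicate 2. Birc5 lost it in 7 runs and kept it without KO replicate 1, with an adjusted p of up to 0.108 without KO replicate 2. The differences themselves ran from -0.32 to -0.26 for Cdkn1c, from -0.50 to -0.39 for Mki67, from -0.82 to -0.58 for Tk1 and from -0.42 to -0.32 for Birc5, so each stayed negative. Under the other normalizations, filters and tests, Cdkn1c kept its call in 12 of 14 settings (not without a filter on dim probes, adjusted p = 0.0598, or with a replicate block, adjusted p = 0.0560), Mki67 in 11 of 14, Tk1 in 9 of 13 and Birc5 in 7 of 14.

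**Figure D5:**
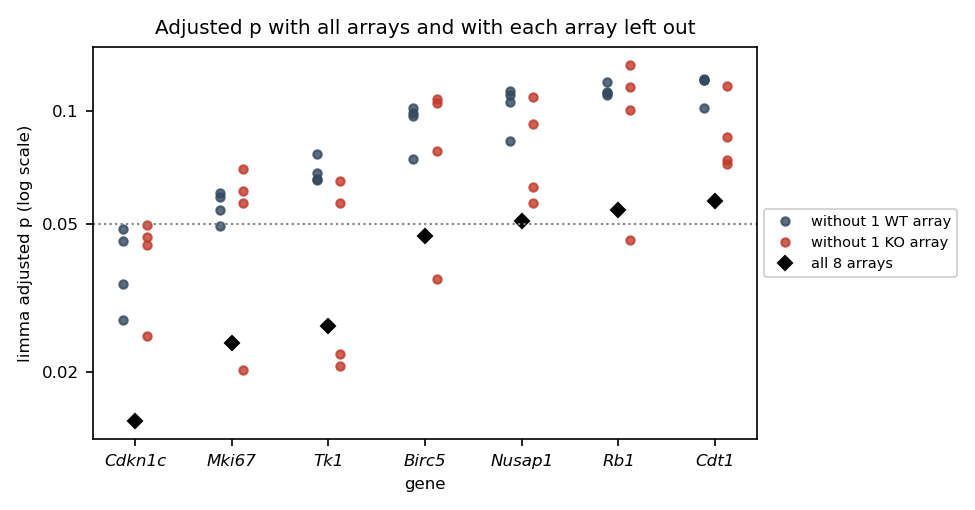
Limma adjusted p on a log scale (vertical axis) with all 8 arrays (diamonds) and with 1 WT or 1 KO array left out (circles) for the 4 called genes and for Nusap1, Rb1 and Cdt1, with the threshold of 0.05 dotted. All circles of Cdkn1c lie under the line, the highest at 0.0495, while most circles of Mki67, Tk1 and Birc5 lie above it.

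Other genes of the same processes were taken from lists of further members of each pathway. Of 24 other G1/S genes tested, 0 were called lower and 1 higher, with 5 lower and 1 higher at an unadjusted p under 0.05 and a median difference of -0.03. The called gene was Wee1, which rose by 0.34 (SE 0.057, limma adjusted p = 0.0210). Its kinase inhibits CDK1 and so holds back entry into mitosis, although the gene was placed on this list. The same holds for Pkmyt1. Pkmyt1, the other kinase that inhibits CDK1, had a difference of -0.24 (adjusted p = 0.0180), with all KO values below all WT values at 84.8% of the WT signal, which is short of a fold of 1.2. Of 39 other replication genes, 0 were called in either direction by limma, with 12 lower and 1 higher at an unadjusted p under 0.05, and the count was 0 although all KO values lay below all WT values in 11 of them (28.2%, against 12.4% of all genes). The KO mean was lower in 30 of these 39, and the median was -0.09. Gins3 passed the adjusted threshold (difference -0.23, limma adjusted p = 0.0420), but at 85.0% of the WT signal it was short of a fold of 1.2. The summed level of this list ran from 89.8 to 93.0 on the WT arrays and from 83.3 to 89.2 on the KO arrays. Of 26 other mitosis genes tested, 3 were called lower and 1 higher, 8 were lower and 2 higher at an unadjusted p under 0.05, 20 means were lower (76.9%, against 57.8% of all genes), and the median was -0.09. The calls are 11.5% lower and 3.85% higher, against 1.49% and 1.99% of all genes. Their summed level was higher in KO, at 87.7 to 89.1 against 78.0 to 83.3 in WT, and without the bright Spc25 probe it was 34.3 to 35.69 against 35.71 to 37.3. Cdca3, which helps to trigger entry into mitosis, fell by 0.36 (SE 0.080, limma adjusted p = 0.0420), the centromere gene Cenpk by 0.28 (adjusted p = 0.0332), and Cdca8, which encodes borealin, a partner of the Birc5 protein in the passenger complex, by 0.26 (adjusted p = 0.0258). When the tested probes of a gene were averaged, the Cdca8 difference was -0.02 and not called, and with normexp those of Cdca3 and Cenpk were -0.24 and -0.18, also not called. Spc25, a subunit of the NDC80 kinetochore complex, rose by 0.27 (adjusted p = 0.0191) from levels of 5.40 to 5.53 in WT to 5.70 to 5.78 in KO. Ndc80, the subunit that names this complex, had the lowest difference of the list, -0.67 with all KO values below all WT values, and did not pass (adjusted p = 0.0592). Ncaph passed the adjusted threshold (difference -0.19, adjusted p = 0.0468) but was short of a fold of 1.2. When single arrays were left out, the call was lost in 7 of 8 runs for Cdca3 and Cdca8, in 6 for Cenpk and in 5 for Wee1 and Spc25. Under the other settings it was kept in 4 of 14 for Cdca8, 6 for Cenpk, 7 for Cdca3, 9 for Spc25 and 11 for Wee1.

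Arrest and damage genes were read beside them. Of 14 tested genes of the DNA damage checkpoint and of the p53 response, 0 were called lower and 1 higher, with the same 0 and 1 at an unadjusted p under 0.05, 7 means lower, 7 higher and a median of 0.01. Gadd45b, a stress-induced gene that slows the cycle, rose by 0.31 (SE 0.068, limma adjusted p = 0.0421) and lost the call in 6 of 8 runs with an array left out. Trp53 differed by -0.02, its negative regulator Mdm2 by -0.04 and Cdkn1a, the p21 inhibitor, by 0.07, and none of these was called.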

How the data were processed

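Total RNA of whole retina was measured by the authors on Agilent SurePrint G3 mouse arrays in 4 Lpcat1 WT and 4 Lpcat1 KO samples, grouped by their labels, and the scans were quantified with Feature Extraction 10.7.1.1. Per array, the deposited files hold processed intensity for 62976 spots, with background subtracted and no scaling between arrays. The deposited series table holds the authors' 75th percentile shifted values on a log2 scale. It differed from the values computed here by a constant of 0.12 to 0.15 per array and served as an alternative.

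Levels were log2 processed signal minus the 75th percentile of the 59305 non-control spots of the array. Outlier spots were left out and repeated spots averaged. Probes well above background on all 4 arrays of a genotype were kept, 33972 of 55681. RefSeq transcript accessions named 26413 probes. WT and KO were compared in R 4.3.3 by limma 3.58.1 (lmFit, eBayes), and single values by exact permutation. The fit was tested on simulated data. The coordinates of the RefSeq windows belong to GRCm38.p6, while the array was designed on another build, so no probe position is given.

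The members and lists were chosen with earlier results of these data known. Genes were named by a rule. It took members called or without overlap, tested or not, and up to 3 of the largest increases and 3 of the largest decreases of each role. It also took 10 fixed genes and called genes of the other pathway lists. The other mitosis list holds 44 symbols, of which 42 matched a probe. Genes of other pathway lists beyond the called ones (Trp53, Mdm2, Cdkn1a, Ndc80, Pkmyt1, Gins3, Ncaph, Incenp), and differences given for the remaining members, are outside that rule. Alternatives covered normalization, background correction, filters, tests, thresholds, pairing, probe choice and each array left out. Some marker genes are not reported here by name.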

Additional observations from a re-analysis of the deposited data

Results flagged for a closer look

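Single arrays stood apart from the others of their genotype in 5 of 92 groups of 4 arrays, by a gap to the nearest array that is a large part of the whole range (Dixon's test at the 95% level). Chance flags about 1 in 20 groups. For Cdt1, WT replicate 1 lay at -1.05 and the other WT arrays at -0.96 to -0.94, on the side away from KO. For Pola1, KO replicate 1 lay at -0.34 and the other KO arrays at -0.95 to -0.86. For Gmnn, KO replicate 4 lay at -3.23 against -2.89 to -2.83. For Rrm1, KO replicate 4 lay at 0.58 against 0.48 to 0.50, toward WT. For Kif20a, WT replicate 3 lay at -3.72 against -3.98 to -3.95. No array held more than 2 of these 5 values.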

How the results depend on the processing

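The count of 4 members called lower moved with several choices. It was 2 with normexp, 2 with the methods' t-test, 1 at a fold change over 1.5 and 0 without a filter on dim probes. With array weights in limma it was 6, with Rrm2 and Nusap1 added. Over all tested probes these settings called 724, 701, 138, 246 and 1251 in this order, against 992 in the main setting. With single arrays left out the count of members called lower ran from 1 to 5. The lowest count, 1, came without WT replicate 1, 2 or 3 or KO replicate 3 or 4, and it was 2 without KO replicate 2. The count called higher was 0, and 1 (Cdt1) when the 75th percentile came from probes detected everywhere. The G1/S median of -0.11 was -0.055 with cyclic loess and -0.056 with normexp, and ran from -0.119 to -0.065 with arrays left out. The mitosis median of -0.14 was -0.059 with normexp and ran from -0.17 to -0.11 with arrays left out. The replication median of -0.04 lay between -0.077 and -0.008 under all settings. Normexp adds a constant to every signal before the log, which makes log2 differences of dim probes smaller. The part of this in the shifts, and any other cause of them, was not tested. Some differences turned sign with an array left out: that of Ccnd2 (0.01) was negative without WT replicate 1, KO replicate 1 or KO replicate 2 and ran from -0.054 to 0.055, and that of Bub1b (0.20) was negative without WT replicate 3 and ran from -0.027 to 0.396. The other scalings moved the median over all tested probes from -0.04 to at most -0.01.

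Replicate numbers are shared between genotypes in the labels. Deviations of same-numbered arrays correlated at 0.04 to 0.25, and not every pair passed 0.1, so the numbers were not taken to pair the samples, although 7 of 8 arrays correlated best with their own number. With a replicate block 0 members were called, and 395 probes over the array against 992 without it, so the calls depend on this choice.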

Other observations

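Tk1 and Birc5 are close neighbours on chromosome 11, with starts 23.2 kb apart in the RefSeq promoter table. Both were called lower with all arrays, but the Tk1 probe was well above background on 3 of 4 KO arrays, and with single arrays left out Birc5 lost its call in 7 of 8 runs and Tk1 in 6. Afmid, which encodes a formamidase of tryptophan breakdown and lies between them, was looked up after these values were seen. Its levels were -2.07, -2.03, -2.12 and -2.00 in WT and -2.26, -2.24, -2.34 and -2.21 in KO, without overlap. The difference was -0.21 (SE 0.044, limma adjusted p = 0.0385), a KO signal of 86.5% of WT, which is short of a fold of 1.2. With single arrays left out its limma adjusted p ran from 0.0588 to 0.106. Over the other settings the difference ran from -0.21 to -0.09.

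The levels of Bub1b followed the replicate number in both genotypes. Replicate 3 was the lowest array of each, at -2.03 in WT and -1.76 in KO, and replicate 4 the highest, at -0.91 and -0.64. Within each number the KO array was the higher one, in 4 of 4.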
